A study of Mus musculus with 12 samples.

Results

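The cytosolic ribosomal proteins are the protein parts of the ribosome that translates nuclear-encoded mRNA. Their mRNAs were followed here in pulmonary CD11c+ cells during infection of mice with Pneumocystis, a fungus of the lung. The integrin chain CD11c is carried by lung macrophages and dendritic cells. The members are the genes whose symbol is Rpl or Rps followed by a digit, together with Rplp0, Rplp1, Rplp2 and Rpsa where measured, without the Rps6k kinases and without pseudogenes. They were taken by symbol and not by their values. This gave 50 of 18193 genes, measured by 106 of 34945 probe sets, the groups of short probes that report a transcript on an Affymetrix array. By role they were 21 proteins of the small subunit, 20 of the large subunit, 2 of the acidic stalk, 5 paralogs, and 2 genes that share the symbol pattern but are not subunits of the mature ribosome, Rpl7l1 and Rps19bp1.

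RNA from 12 mice was measured, 1 array per mouse and 3 mice in each of 4 groups: wildtype at day 7, IFNAR-/- at day 7, wildtype at day 14 and IFNAR-/- at day 14. Every mouse had received Pneumocystis through the trachea, and no uninfected mouse was among these arrays, so day 7 is the earliest level known here. The IFNAR-/- mice lack the receptor for type I interferons in all cells, not in CD11c+ cells alone. The cells were bound by magnetic beads from collagenase-digested lungs, and the labels name lymphocytes among the cells that came along. The labels give no strain, age or sex. The design asks whether type I interferon signals in these cells and whether it bears on inflammation as clearance begins.

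A ribosome has a small subunit, which reads the mRNA, and a large subunit, which joins amino acids and carries a stalk that recruits elongation factors. Its proteins are made in matching amounts, and their mRNAs are abundant and stable in most cells. Many of these mRNAs start with a C followed by an unbroken run of C and T, the terminal oligopyrimidine start. Through this start mTOR signalling controls their translation. Type I interferon acts on translation at another level as well, through the kinase PKR (Eif2ak2), which blocks initiation. An array measures mRNA only, so none of the values below is a rate of translation or an amount of protein.

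The starts of 9 genes are shown because they span the members, from clear oligopyrimidine starts to the genes that passed a test below. Each is a window of 30 bases, 10 before the annotated first transcribed base and 20 from it, as RefSeq gives the start in assembly GRCm38.p6. Capitals mark the unbroken run of C and T that begins at the annotated first base, and a window without capitals has none there.
Rps6 (chr4:86857348-86857377, minus strand): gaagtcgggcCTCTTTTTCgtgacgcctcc
Rps10 (chr17:27635225-27635254, minus strand): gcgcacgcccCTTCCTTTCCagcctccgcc
Rpl38 (chr11:114668570-114668599, plus strand): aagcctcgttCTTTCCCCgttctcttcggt
Rps27 (chr3:90213629-90213658, minus strand): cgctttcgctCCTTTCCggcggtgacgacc
Rpl13a (chr7:45128726-45128755, minus strand): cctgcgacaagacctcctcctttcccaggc
Rps9 (chr7:3704031-3704060, plus strand): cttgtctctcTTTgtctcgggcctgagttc
Rps16 (chr7:28350679-28350708, plus strand): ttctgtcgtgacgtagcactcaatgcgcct
Rps25 (chr9:44407704-44407733, plus strand): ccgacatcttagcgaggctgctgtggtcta
Rps19bp1 (chr15:80264287-80264316, minus strand): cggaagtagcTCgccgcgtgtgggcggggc

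RefSeq start windows of 300 bases, 250 before the start and 50 after it, were held for 44 of the 50 members. A C at the annotated first base with at least 4 further bases of C or T was found in 8 of them (18.2%), against 2.49% of the 27025 windows of all genes. Within 3 bases of the annotated start the counts were 16 (36.4%) and 11.6%. In the further 8 the C that opens the run lay within 3 bases of the annotated base and not at it, as in Rpl13a. The letters CCGGAAG, a core that ETS factors such as GABP bind, were found on either strand in 21 member windows (47.7%), against 9.12% of all windows. GGGCGG, bound by Sp1, was found in 25 (56.8%) against 35.9%. The members' windows also held more G and C, with a median of 57.3% against 52.7% in all windows. AAGATGGC, bound by YY1, was found in 3 windows (6.82%, against 2.88%), CACGTG, bound by Myc, in 3 (6.82%, against 7.24%) and TATAAA in 5 (11.4%, against 14.2%). None of these letter runs lies inside another, and a match is a description of the sequence only.

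Values are log2 ratios of each gene to about its own median over the 12 arrays. They can be compared between arrays for 1 gene, but they do not show whether a gene was expressed more than another. Of 77 genes of the standard list of subunits, 43 were measured on probe sets with a single symbol. Of the other 34, 27 were found only on probe sets that carry several symbols and were not analysed here, among them Rplp1, Rpl3, Rpl5 and Rpl10. Of the 106 member probe sets, 40 end in _x_at, 28 in _a_at and 3 in _s_at, types whose probes can match several transcripts or genes of a family, and 23 members were measured by such probe sets alone. For these members, signal from near-identical copies cannot be told apart from that of the gene.

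Some arrays differed in ways that their groups do not name. IFNAR-/- day 14 mouse 2 had an interquartile range over all genes of 0.555, where the others lay between 0.169 and 0.342. IFNAR-/- day 7 mouse 3 and wildtype day 7 mouse 1 were high in lung epithelial markers, at medians of 2.13 and 1.86 over 13 genes. The 5' over 3' signal of the actin and Gapdh controls is a sign of RNA integrity. It was -0.24, -0.18 and -0.91 in the wildtype arrays of day 14 and between 0.06 and 0.16 in the IFNAR-/- arrays of that day. At day 7 it was low in IFNAR-/- mouse 2 as well, at -0.52, and between 0.08 and 0.18 in the other arrays. The poly-A spike-in control was lowest in IFNAR-/- day 7 mouse 3, at -3.18. The 18S ribosomal RNA control was high in wildtype day 14 mouse 1, at 2.50. A probe set of Ifnar1 was lower in each IFNAR-/- array than in every wildtype array of the same day, and its other probe set overlapped. Itgax, the gene of CD11c, lay between -0.28 and 0.25 on all arrays, and a ratio cannot show its level. These are mixtures of cells, so fewer cells of a type and less RNA per cell cannot be told apart in any value below.

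The members varied little between arrays. The range of a gene over the 12 arrays had a median of 0.526 among the 50 members, against 0.774 among all genes and 0.721 among 76 mitochondrial ribosomal proteins. The range was under 0.5 in 22 of 50 members (44.0%), against 20.7% of all genes. The narrowest were Rpl19, with a range of 0.187, Rpl4 with 0.225 and Rps14, a protein at the platform of the small subunit, with 0.260. A range above 1 was found in 10 of 50 members, against 32.4% of all genes. These were Rps25 (3.24), Rpl27a (2.86), Rps9 (2.53), Rpl39l (2.24), Rps4l (1.76), Rpl12 (1.56), Rpl14 (1.53), Rps19bp1 (1.40), Rps27l (1.11) and Rpl3l (1.01). Of these 10, 4 are paralogs and 1 is not a subunit.

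**Figure D1:**
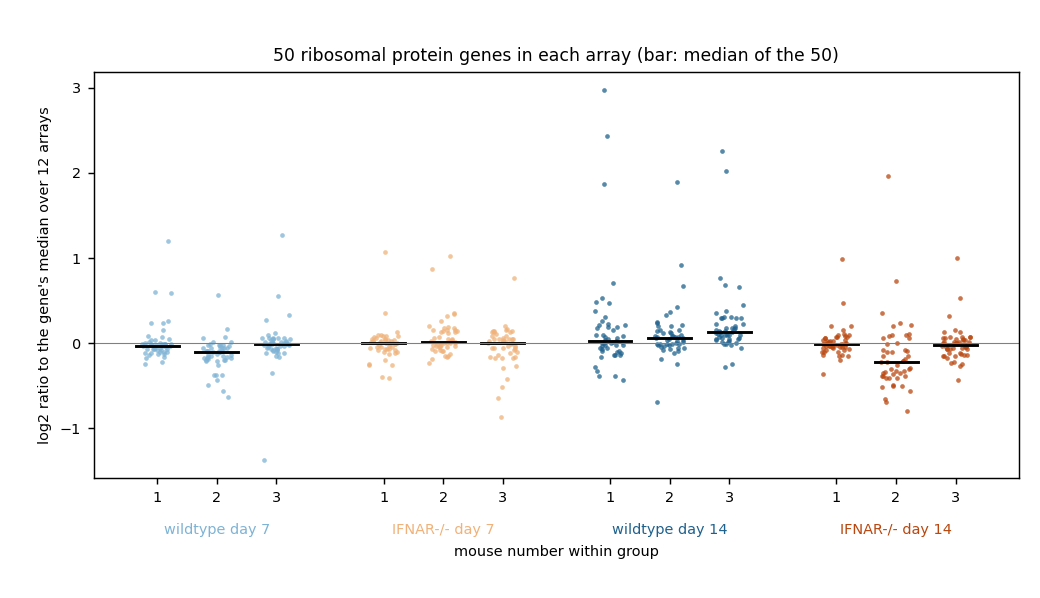
Each point is 1 of the 50 ribosomal protein genes on 1 array, as its log2 ratio to its median over the 12 arrays (y axis), with the arrays on the x axis by group and mouse number. Bars mark the median of the 50 genes, from -0.22 in IFNAR-/- day 14 mouse 2 to 0.13 in wildtype day 14 mouse 3, and single points above 1.5 appear only at day 14.

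The median of the 50 members was -0.03, -0.10 and -0.01 in the wildtype day 7 arrays and 0.00, 0.02 and 0.01 in the IFNAR-/- day 7 arrays. At day 14 it stood at 0.02, 0.06 and 0.13 in the wildtype arrays, against -0.01, -0.22 and -0.02 without IFNAR. The wildtype day 14 arrays thus lay highest and did not overlap with either IFNAR-/- day 14 or wildtype day 7 arrays. Single arrays differed within their groups as well: 44 of 50 members lay below 0 in wildtype day 7 mouse 2 and 37 in IFNAR-/- day 14 mouse 2, against 6 in wildtype day 14 mouse 3. The pooled SD of the members' median within groups was 0.0696.

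At day 7 the ribosomal protein genes showed little difference between genotypes. By limma with Benjamini-Hochberg adjustment over all genes 1 of 50 members passed, Rps16, against 2.64% of all genes. Rps16, a protein of the head of the small subunit, was at 0.24, 0.17 and 0.55 in wildtype arrays and at -0.25, -0.15 and -0.16 without IFNAR. The groups did not overlap, and the wildtype arrays were the high ones. Rps16 fell by 0.51 ± 0.12 (SE, n = 3 per group), 1.42-fold, with an adjusted p of 0.0480 by limma. That call sat at the threshold: it was lost when any 1 of the 6 arrays was left out, with an adjusted p up to 0.173 over its alternatives.

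More members lay above than below without overlap at day 7. In 12 of 50 members every IFNAR-/- array lay above every wildtype array, against 12.4% of all genes, and in 3 every one lay below, against 11.6%. The 12 were Rpl10a, Rpl22, Rpl37a, Rpl38, Rplp2, Rps10, Rps14, Rps27, Rps28, Rps29, Rps3a1 and Rps4l, and the 3 were Rps16, Rps27l and Rps6. Most of these steps were small. The median difference of the 50 members was 0.064, against -0.001 in all genes, and 18 of 50 had a difference below 0, against 50.3% of all genes. Without wildtype day 7 mouse 2 the median was 0.022, with 23 of 50 below 0. Rps6, the target of the ribosomal S6 kinases, differed by -0.50 ± 0.19 (limma adjusted p = 0.240). Its values were 0.26, 0.57 and 0.28 in the wildtype arrays, against -0.13, 0.15 and -0.42 in those without IFNAR. Cell type markers differed at day 7 too. Dendritic cell markers fell in 8 of 13 genes, with a median difference of -1.08, and their median ran from 0.04 to 0.42 in wildtype and from -0.61 to -0.35 without IFNAR. All 11 T cell markers (median -0.48) and all 9 NK cell markers (median -0.42) lay below 0. The part of these cells in the members' values was not tested.

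At day 14 the members lay lower in IFNAR-/- than in wildtype cells, most of them by small amounts. Of 50, 42 had a difference below 0, against 49.5% of all genes, and the median difference was -0.153, against 0.003. By limma with Benjamini-Hochberg adjustment 4 members fell and 0 rose, where 5.04% of all genes passed in either direction and 3.29% fell. At an unadjusted limma p under 0.05 the count was 12 of 50, against 21.0% of all genes. The 4 were the small subunit proteins Rps9 and Rps25, the large subunit protein Rpl13a and the Rps19-binding protein Rps19bp1. In 13 members (26.0%) every IFNAR-/- array lay below every wildtype array, against 13.3% of all genes. In 1 member, Rps4l, every array lay above, against 10.2%.

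Rps9, a small subunit protein at the entry of the mRNA channel, was at 1.87, 1.89 and 2.02 in the wildtype and at -0.04, -0.52 and -0.18 in the IFNAR-/- arrays at day 14. The groups stood far apart, with all wildtype arrays high. Rps9 fell by 2.17 ± 0.34 (SE, n = 3 per group), 4.50-fold, with an adjusted p of 0.00844 by limma. The call held with each of the 6 arrays left out. It rested on the probe set ending in _x_at, as described below.

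Rps25, a small subunit protein needed for initiation at some viral entry sites on RNA, was at 2.97, 0.92 and 2.26 in the wildtype and at 0.11, -0.22 and 0.00 in the IFNAR-/- arrays at day 14. The wildtype arrays were all higher and spread widely, and they read 2.50, 0.30 and 0.93 for the 18S control. IFNAR-/- day 14 mouse 2 read 0.92 for 18S with Rps25 at -0.22. Wildtype day 7 mouse 3 read -0.04 for 18S with Rps25 at 1.27. Rps25 fell by 2.08 ± 0.47 (SE), 4.24-fold, with an adjusted p of 0.0286 by limma. The call of Rps25 at day 14 was lost in 5 of the 6 fits that left out 1 array, with adjusted p between 0.0615 and 0.0971 there, and held only without wildtype day 14 mouse 2. With the 18S signal as a covariate its difference was -1.49, with a limma adjusted p of 0.0975. The part of 18S in the Rps25 values was not tested.

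Besides its place in the large subunit, Rpl13a joins a complex that silences inflammatory mRNAs in monocytes treated with interferon gamma, which is not a type I interferon. It was at 0.22, 0.23 and 0.29 in the wildtype and at -0.10, -0.51 and -0.14 in the IFNAR-/- arrays. Rpl13a fell by 0.50 ± 0.12 (SE), 1.41-fold, with an adjusted p of 0.0440 by limma. Rps19bp1, which binds Rps19 and the deacetylase Sirt1, was at 0.53, 0.67 and 0.76 in the wildtype and at 0.07, 0.22 and 0.07 in the IFNAR-/- arrays. Rps19bp1 fell by 0.53 ± 0.13 (SE), 1.45-fold, with an adjusted p of 0.0407 by limma. In both genes all wildtype arrays were higher. The call of Rpl13a was lost in all 6 fits that left out 1 array, and that of Rps19bp1 in 5 of 6, all but the fit without IFNAR-/- day 14 mouse 2.

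The other 46 members did not pass at day 14, and their differences ran from -0.65 to 0.35. Of the small subunit, 18 of 21 lay below 0 (median -0.125), and of the large subunit 18 of 20 (median -0.181). Rpsa, also known as a laminin receptor, differed by -0.25 ± 0.11 without overlap of the arrays, and Rps3, which also takes part in DNA repair, by -0.28 ± 0.11. Rpl14 differed by -0.65 ± 0.28 and Rpl37a by -0.31 ± 0.12, both without overlap. The stalk proteins Rplp0 and Rplp2 differed by -0.07 ± 0.13 and -0.16 ± 0.12. Rps19 and Rpl11, both genes of Diamond-Blackfan anaemia, differed by -0.15 ± 0.12 and -0.13 ± 0.11. The lowest limma adjusted p among those 8 was 0.170, for Rpl37a. The array with the widest spread added to the median difference of the members, which was -0.088 without IFNAR-/- day 14 mouse 2.

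**Figure D2:**
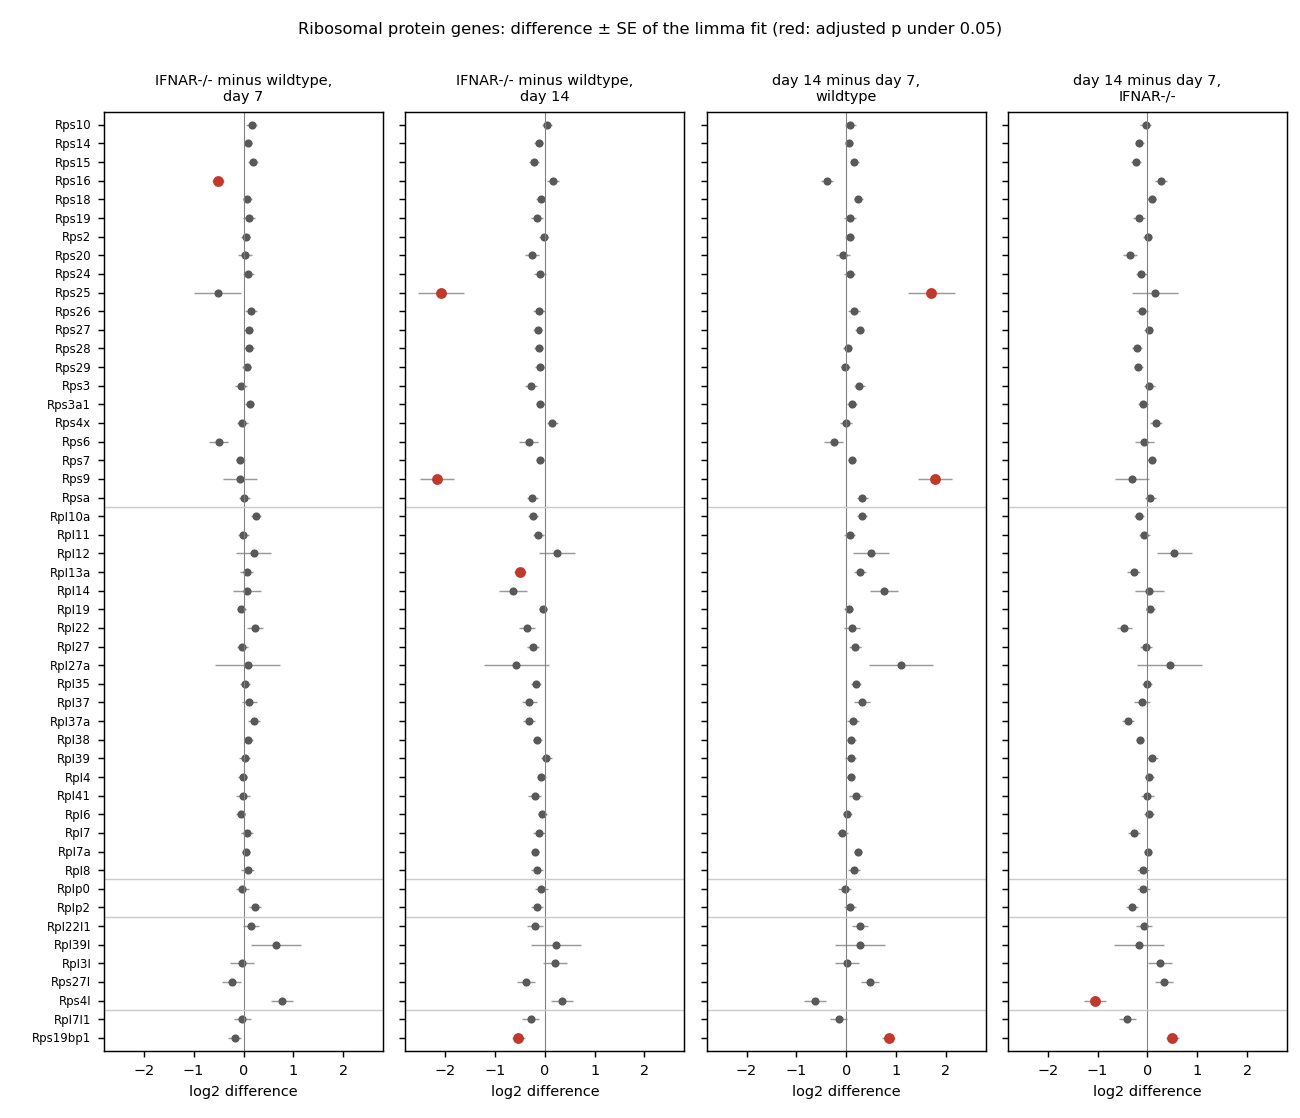
Log2 differences (x axis) of the 50 ribosomal protein genes, by role from the small subunit at the top to the genes that are not subunits at the bottom, in 4 comparisons. Points are differences of group means (3 arrays each), lines are ± 1 SE of the limma fit, and red points passed at an adjusted p under 0.05: 1, 4, 3 and 2 genes from left to right.

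Several other signals moved with genotype at day 14. The 5' over 3' control signal of the wildtype and IFNAR-/- arrays did not overlap, and with it as a covariate 0 of the 50 members and 0.203% of all genes passed by limma. At an unadjusted p under 0.05 that fit gave 3 members, against 11.1% of all genes. T cell markers rose in 6 of 11 genes with a median difference of 0.84. Their median ran from -0.35 to -0.11 in wildtype and from 0.21 to 0.85 in IFNAR-/- arrays. Cell cycle genes rose in 2 of 20 with a median of 0.54, and NK cell markers in 1 of 9 with a median of 0.72. Dendritic cell markers rose in 4 of 13 (median 0.33), monocyte markers in 2 of 7 (median 0.48) and alveolar macrophage markers in 2 of 12 (median 0.09). The list medians of T cell, B cell, dendritic cell, monocyte, neutrophil, lung epithelial and fibroblast markers were all higher in the IFNAR-/- arrays, without overlap. The poly-A spike-in control did not overlap either, at -1.86, -1.71 and -3.07 in wildtype against 0.15, -1.54 and -0.18. With it as a covariate 5 members fell, a count given without the share of all genes in that fit. Ratios have no true 0, so absent markers cannot be named, and the part of these cells in the result was not tested.

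In wildtype cells the members lay higher at day 14 than at day 7. By limma with Benjamini-Hochberg adjustment 3 of 50 rose and 0 fell, where 7.98% of all genes passed and 3.88% rose. At an unadjusted limma p under 0.05 there were 14 of 50 (28.0%), against 22.1% of all genes. Every day 14 array lay above every day 7 array in 17 members (34.0%), against 16.0% of all genes, and below in 1, Rps16, against 15.2%. The median difference was 0.121, against 0.019 in all genes, and 8 of 50 lay below 0, against 46.4%. With 18S as a covariate the median was 0.20, and with the 5' over 3' control signal in the model 0 members and 0.846% of all genes passed by limma. At an unadjusted p under 0.05 that fit gave 5 members, against 13.3% of all genes. Over the same interval 12 of 13 lung epithelial markers (median -1.21) and 20 of 20 cell cycle genes (median -0.56) lay below 0. Alveolar macrophage markers fell in 4 of 12 genes (median -0.35), and dendritic cell markers fell in 3 of 13 and rose in 1 (median -0.59). Their part in the result was not tested.

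Rps19bp1 rose by 0.85 ± 0.13 (SE, n = 3 per group) in wildtype cells, 1.80-fold, with an adjusted p of 0.00416 by limma. It went from -0.22, -0.20 and -0.16 at day 7 to 0.53, 0.67 and 0.76 at day 14. Replicates were tight in both groups, and the call held with each array left out. Rps9 rose by 1.79 ± 0.34, 3.45-fold, with an adjusted p of 0.0103 by limma. Its day 7 values were 1.20, -0.43 and -0.35, so wildtype mouse 1 already stood high. That array was also high in lung epithelial markers, at 1.86. IFNAR-/- day 7 mouse 3 was at 2.13 in these markers with Rps9 at 0.16, and the wildtype day 14 arrays lay between -0.54 and -0.48. The part of these markers in the Rps9 values was not tested. Rps25 rose by 1.71 ± 0.47, with an adjusted p of 0.0467 by limma, but its arrays overlapped: day 7 held -0.12, -0.13 and 1.27, and the last lies above the 0.92 of wildtype day 14 mouse 2.

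Among the 15 other members without overlap were Rpsa with 0.32 ± 0.11, Rpl10a with 0.32 ± 0.11, Rps27 with 0.27 ± 0.09 and Rpl14 with 0.76 ± 0.28. Rps27l, a paralog of Rps27 that p53 induces, differed by 0.48 ± 0.18. None of these 5 passed, with limma adjusted p between 0.0941 and 0.146. Rpl27a reached 1.10 ± 0.65, with an adjusted p of 0.367 by limma. Rps16 differed the other way, from the 0.24, 0.17 and 0.55 of day 7 to -0.14, -0.09 and 0.01 at day 14, a difference of -0.39 ± 0.12 with a limma adjusted p of 0.0707. The wildtype day 14 arrays enter both this comparison and the genotype comparison at day 14, so the higher values there are counted in both.

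In IFNAR-/- cells 2 of 50 members passed between day 7 and day 14, 1 rose and 1 fell, against 12.3% of all genes, of which 4.08% rose and 8.25% fell. Rps4l, a paralog of the small subunit protein Rps4x, was at 1.07, 1.03 and 0.77 at day 7 and 0.16, -0.21 and -0.23 at day 14. All day 7 arrays were higher. Rps4l fell by 1.05 ± 0.23 (SE, n = 3 per group), 2.07-fold, with an adjusted p of 0.0133 by limma, and the call was lost without IFNAR-/- day 7 mouse 1 and kept in the other 5 fits. Rps19bp1 rose by 0.50 ± 0.13, 1.41-fold, with an adjusted p of 0.0315 by limma. It went from -0.40, -0.09 and -0.64 to 0.07, 0.22 and 0.07. It was thus the 1 member that passed with the same direction in both genotypes. In IFNAR-/- cells its call was lost in 4 of the 6 fits that left out 1 array.

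Counting called members as well, 14 members (28.0%) had every IFNAR-/- day 14 array below every day 7 array, against 17.8% of all genes. In 2 members, Rps16 and Rps19bp1, every array lay above, against 16.2%. The 14 included Rpl22, Rpl37a, Rplp2, Rps14, Rps28 and Rps29. Rpl22, which binds the mRNA of its paralog Rpl22l1, differed by -0.46 ± 0.16 (limma adjusted p = 0.0826). Rpl22l1 differed by -0.07 ± 0.16. The median of the 50 members was -0.064, against 0.024 in all genes. It did not keep its sign: with members measured by probe sets ending in _at alone it was 0.04 over 27 members. Without IFNAR-/- day 14 mouse 2, the array of widest spread, it was -0.0006, and without mouse 1 of that group -0.11. T cell markers rose in 8 of 11 genes over the same interval, with a median of 0.94. Dendritic cell markers rose in 8 of 13 (median 0.79), and their list median ran from -0.61 to -0.35 at day 7 and from 0.06 to 0.34 at day 14. Alveolar macrophage markers fell in 4 of 12, with all 12 below 0 (median -0.93). The part of these cells in the result was not tested.

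**Figure D3:**
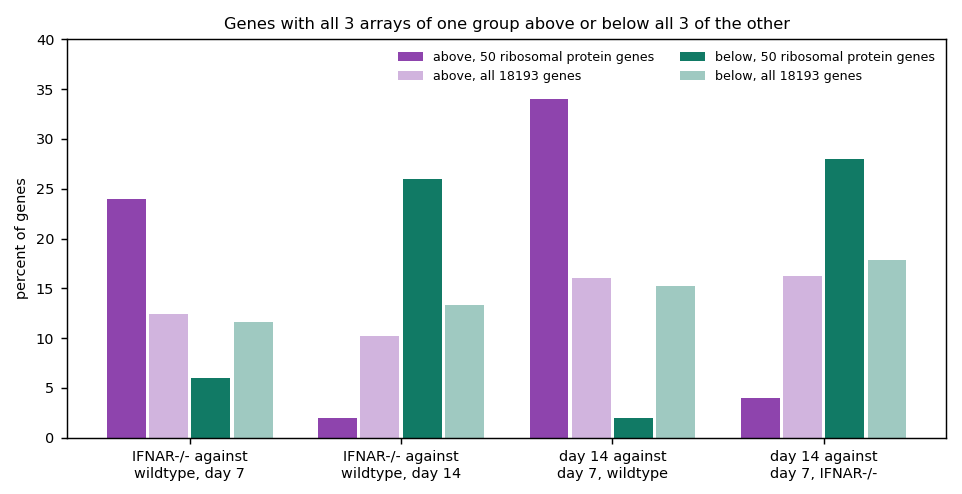
Percent of genes (y axis, from 0) whose 3 arrays of the first-named group all lay above (purple) or all below (green) the 3 of the other, in 4 comparisons (x axis). Dark bars are the 50 ribosomal protein genes and pale bars all 18193 genes. At day 7 the dark bars lean to above (12 of 50, against 12.4% of all genes), as with time in wildtype (17, against 16.0%). They lean to below at day 14 (13, against 13.3%) and with time in IFNAR-/- cells (14, against 17.8%).

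The genotype difference of most members was lower at day 14 than at day 7, and the shift of their median was not tested. The genotype comparisons of day 7 and day 14 have no array in common. Of 50 members, 42 had a difference at day 14 below that at day 7, against 50.8% of all genes, with a median change of -0.228 against -0.007. Without IFNAR-/- day 14 mouse 2 the median change was -0.142. By limma with Benjamini-Hochberg adjustment 1 member passed, Rps9, against 2.48% of all genes. At an unadjusted limma p under 0.05 there were 9 of 50, against 18.1%. The difference of Rps9 was -0.07 ± 0.34 at day 7 and -2.17 ± 0.34 at day 14, a change of -2.10 ± 0.48 with a limma adjusted p of 0.0471. That call held in 1 of 12 fits that left out an array, the fit without wildtype day 7 mouse 1. Rps16 changed the other way, by 0.66 ± 0.17, with a limma adjusted p of 0.0609. Rpl10a, Rpl37a, Rpl38 and Rps14 had every IFNAR-/- array above wildtype at day 7 and below at day 14. They are 4 of the 50 members, and 1.88% of all genes did the same. Rps4l lay above on both days, as did 1.32% of all genes, and 0 members lay below on both days, against 2.05%. Over the days the genotype difference of dendritic cell markers rose in 7 of 13 genes and that of T cell markers in 6 of 11, and their part in the members' change was not tested.

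Rpl38, known for its part in translating Hox mRNAs, shows how small these steps were. It was at 0.00, -0.09 and 0.00 in the wildtype and at 0.01, 0.15 and 0.05 in the IFNAR-/- arrays at day 7. At day 14 the wildtype arrays held 0.09, -0.02 and 0.14, and those without IFNAR -0.03, -0.15 and -0.07. The order of the genotypes turned without overlap on either day, and neither difference passed (0.10 ± 0.09 and -0.15 ± 0.09, limma adjusted p = 0.781 and 0.362).

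The 5 paralogs did not move as a group. Rps27l lay at 0.70, 0.20 and 0.38 in wildtype day 14 arrays and at 0.20, -0.38 and 0.32 in IFNAR-/- day 14 arrays, which overlap. Rpl39l, a form of Rpl39 known from testis, was among the most variable members, from -1.37 to 0.87 over the arrays, and none of its differences passed. At day 7 it held 0.59, -0.49 and -1.37 in wildtype arrays alone. Rpl39 itself kept within -0.19 and 0.21. Rpl3l, a form known from heart and skeletal muscle, ran from -0.27 to 0.74, the highest in IFNAR-/- day 14 mouse 2. Rpl22l1 lay between -0.37 and 0.29. Rps4l was the paralog with the clearest pattern, at 0.61, -0.38 and 0.33 in wildtype day 7, below all of the IFNAR-/- day 7 values given above, and at -0.39, -0.69 and -0.24 in wildtype day 14 arrays. Its genotype differences, 0.77 ± 0.23 at day 7 and 0.35 ± 0.23 at day 14, did not pass (limma adjusted p = 0.113 and 0.426).

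The probe sets of 1 gene did not always tell the same story. Of 24 members with more than 1 probe set, 9 had a correlation above 0.5 over the 12 arrays between every pair of their probe sets, and 6 had a pair below 0. Rps9 had 3 probe sets. The one ending in _x_at read 5.36, 5.02 and 5.15 in wildtype day 14 arrays and 4.41 in wildtype day 7 mouse 1, and between -0.75 and 0.37 in all others. The one ending in _s_at stayed between -0.43 and 0.22 on every array. The one ending in _at read -0.77, -0.90 and -0.91 in wildtype day 7 and 0.18, 0.57 and 0.74 in wildtype day 14 arrays. That probe set rose by 1.36 ± 0.23 with time in wildtype cells, with an adjusted p of 0.00682 by limma over all probe sets. At day 14 its genotype difference was -0.51, with a limma adjusted p of 0.219 over all probe sets. Of the 3 probe sets, the one ending in _x_at passed by itself at day 14, where it fell by 5.63 ± 0.91 (limma adjusted p = 0.00994).

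**Figure D4:**
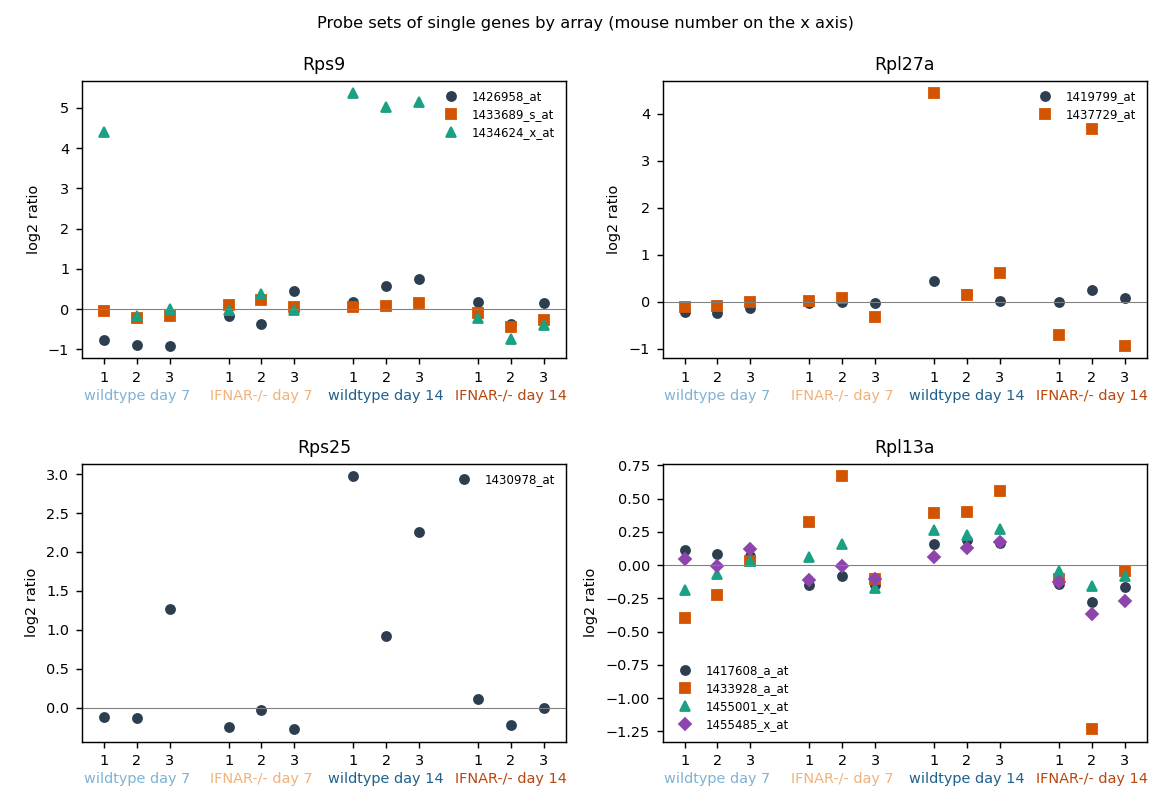
Log2 ratio (y axis) of each probe set of Rps9, Rpl27a, Rps25 and Rpl13a on the 12 arrays (x axis, mouse number within group). For Rps9 the probe set ending in _x_at stands near 5 in all wildtype day 14 arrays and at 4.41 in wildtype day 7 mouse 1, and for Rpl27a a probe set stands at 4.43 and 3.67 on 1 array of each genotype at day 14.

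Rpl27a shows the same on single arrays. One of its probe sets, both ending in _at, read 4.43 in wildtype day 14 mouse 1 and 3.67 in IFNAR-/- day 14 mouse 2, and between -0.94 and 0.60 elsewhere. Its other probe set kept between -0.24 and 0.43. Those arrays read 2.50 and 0.92 for the 18S control, and wildtype day 14 mouse 3 read 0.93 for 18S with 0.60 for that probe set. The part of 18S in these values was not tested. Rps25 had 1 probe set, so nothing can be set beside it. The 4 probe sets of Rpl13a ran closer together, and 1 of them, ending in _a_at, fell by itself at day 14 (-0.37 ± 0.09, limma adjusted p = 0.0477). A probe set of Rps18 ending in _x_at also fell at day 14 (-0.49 ± 0.11, limma adjusted p = 0.0331), while Rps18 as the mean of its 6 probe sets differed by -0.09 ± 0.09.

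The members can be split by their starts and promoter letters. At day 7 the median genotype difference was 0.083 in the 16 members with an oligopyrimidine start within 3 bases, with 3 of 16 below 0, and -0.006 in the 28 without, with 15 of 28 below 0. At day 14 the median genotype difference was -0.181 in those with such a start and -0.129 in those without. For members with CCGGAAG it was -0.132 (21 genes) and without -0.191 (23 genes). With time in wildtype cells the medians were 0.260 and 0.117 by start, and 0.121 and 0.165 by CCGGAAG. These are descriptions, and the differences between the sides of each split were not tested.

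Other genes of ribosome production and translation were read from lists made alongside. The 76 mitochondrial ribosomal proteins, which build the separate ribosome of mitochondria, had larger median differences than the cytosolic ones at day 14 and over time in wildtype. At day 14, 11 of 76 fell in IFNAR-/- cells, against 3.29% of all genes, with a median of -0.247 and 66 of 76 below 0. Mrps12, a protein of the mitochondrial decoding site, fell by 0.86 ± 0.16 and Mrpl22 by 0.68 ± 0.11 (limma adjusted p = 0.0138 and 0.00958). With time in wildtype cells 20 of 76 rose, against 3.88% of all genes, with a median of 0.307. Mrps12 was among them and rose by 1.11 ± 0.16 (limma adjusted p = 0.00256). With time in IFNAR-/- cells 6 rose and 1, Mrps6, fell, with a median of 0.134, where 4.08% of all genes rose and 8.25% fell. At day 7, 1 of 76 passed, against 2.64% of all genes. It was Mrps6, which rose by 0.92 ± 0.20 (limma adjusted p = 0.0347).

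Of 48 genes of ribosome biogenesis, 6 rose with time in wildtype cells, against 3.88% of all genes (median of the list 0.254). Gar1 and Nhp2, proteins of the particles that modify ribosomal RNA, rose by 1.08 ± 0.16 and 0.83 ± 0.14. Rrn3, the factor that starts RNA polymerase I, rose by 1.00 ± 0.22, and Utp20, Nip7 and Nop16, which process the precursor RNA, rose by 1.02, 0.79 and 0.54. The limma adjusted p of these 6 ran from 0.00334 to 0.0422. In IFNAR-/- cells 1 of 48 rose with time, against 4.08% of all genes. It was Nhp2, which rose by 0.78 ± 0.14 (limma adjusted p = 0.00604). Nip7 was the 1 of 48 that passed between genotypes at day 14, against 5.04% of all genes. There Nip7 fell by 0.77 ± 0.15 (limma adjusted p = 0.0184).

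Of 31 translation factors and related mRNAs, 3 rose with time in wildtype cells, against 3.88% of all genes. Eif3i rose by 0.59 ± 0.12, Eif3k by 0.41 ± 0.10 and Eif6, which keeps the subunits apart, by 0.57 ± 0.15 (limma adjusted p from 0.0129 to 0.0397). With time in IFNAR-/- cells 3 others of the 31 fell, against 8.25% of all genes. The helicase Eif4a2 fell by 0.92 ± 0.20, its cofactor Eif4b by 0.62 ± 0.14 and Eif5b by 0.39 ± 0.10 (limma adjusted p from 0.0132 to 0.0256). Between genotypes at day 14, 1 of 31 fell, against 3.29% of all genes. It was Eif3i, which fell by 0.47 ± 0.12 (limma adjusted p = 0.0426).

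Among 22 genes that control ribosome production and translation was Eif2ak2 (PKR), an interferon-induced gene. At day 7 it fell by 1.47 ± 0.21 in IFNAR-/- cells, and with time in wildtype cells it fell by 1.58 ± 0.21 (limma adjusted p = 0.00446 and 0.00189). Between genotypes at day 14 Eif2ak2 did not pass. Its genotype difference changed by 1.74 ± 0.29 from day 7 to day 14 (limma adjusted p = 0.0168). Eif4ebp1, the brake on initiation that mTOR releases, rose by 0.78 ± 0.10 with time in wildtype cells and fell by 0.51 ± 0.10 between genotypes at day 14 (limma adjusted p = 0.00181 and 0.0208). Maf1, a repressor of RNA polymerase III, rose by 0.54 ± 0.12 with time in wildtype cells (limma adjusted p = 0.0233). Eef2k, the kinase that slows elongation, fell by 0.86 ± 0.16 with time in IFNAR-/- cells (limma adjusted p = 0.00604). At day 14 Eif4ebp1 was the 1 gene of the 22 that passed, against 5.04% of all genes. At day 7 1 of the 22 fell, where 2.64% of all genes passed. With time in wildtype cells 2 rose and 1 fell, where 7.98% of all genes passed. With time in IFNAR-/- cells 1 fell, against 8.25% of all genes. For the change of the genotype difference 1 rose and 1 fell, where 2.48% of all genes passed.

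**Figure D5:**
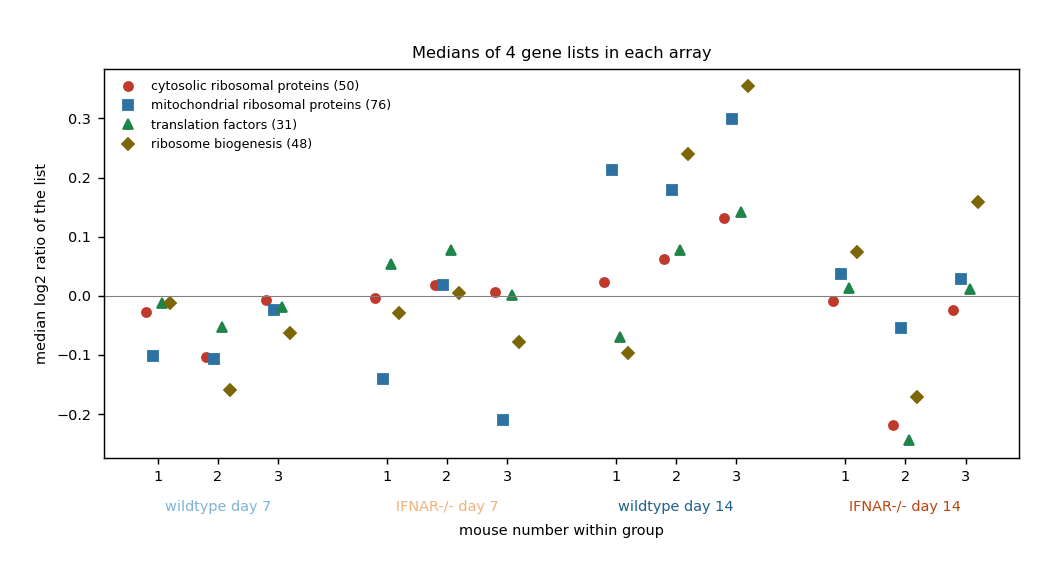
Median log2 ratio (y axis) of 4 gene lists on each of the 12 arrays (x axis), with the number of genes in brackets. Mitochondrial ribosomal proteins lie between 0.18 and 0.30 in the wildtype day 14 arrays and between -0.06 and 0.04 in IFNAR-/- day 14 arrays; the cytosolic ribosomal proteins lie between 0.02 and 0.13 and between -0.22 and -0.01.

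Side by side, the median of the mitochondrial ribosomal proteins was 0.21, 0.18 and 0.30 in wildtype day 14 arrays and 0.04, -0.06 and 0.03 in IFNAR-/- day 14 arrays. The cytosolic members followed the same order of groups at day 14 with smaller steps. In IFNAR-/- day 14 mouse 2 they parted, with the cytosolic median at -0.22 and the mitochondrial at -0.06. Biogenesis genes spread more among wildtype day 14 arrays, at -0.10, 0.24 and 0.35. The same arrays enter all of these lists, and the difference between the lists was not tested.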

How the data were processed

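RNA from CD11c+ lung cells of 12 mice was measured on 12 arrays in 4 groups of 3. The submitters' processing notes name RMA without a version. The deposited values are linear ratios, the authors' value of a probe set divided by about its own median over the arrays; this was read from the values, since the median lay within 0.02 of 1 for 100% of probe sets. Levels and signal over background are therefore unknown, no filter on dim probe sets was possible, and precision is limited by how many arrays there were. Of 45101 probe sets, the 34945 with 1 symbol that are not controls were used, and log2 ratios were averaged per gene (18193 genes). A linear model with 1 mean per group was fitted with limma 3.58.1 in R 4.3.3 (8 residual degrees of freedom, prior 3.21), with two-sided tests. P-values were adjusted over all genes (Benjamini-Hochberg), and 0.05 was the threshold. The fit was tested on simulated data. All groups share 1 estimate of the spread.

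Members were matched by symbol, and all 50 matched RefSeq. The members and lists were chosen with earlier results of these data known. Named by rule were up to 4 members with the largest rise and fall among those past the threshold without overlap of arrays, and members chosen by role. Other members and the genes of other lists were named after their values were seen. Alternatives were another normalization, other ways to join probe sets, other variance priors, array weights, a replicate block, fewer arrays, control signals as covariates and a threshold of 1.5-fold. Mouse numbers were checked for pairing and did not pair the arrays: 3 of 18 same-numbered pairs had a correlation above 0.1 (range -0.40 to 0.23). All 12 columns were matched to a mouse by their labels.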

Additional observations from a re-analysis of the deposited data

Results flagged for a closer look

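The genotype difference of Rps9 differed between the days. It was -0.07 ± 0.34 at day 7 and -2.17 ± 0.34 at day 14 (SE, n = 3 arrays per group), and the change of -2.10 ± 0.48 was tested as an interaction, with a limma adjusted p of 0.0471. The change lay below 0 under every alternative tried, between -4.32 and -1.34, with limma adjusted p up to 0.352. Its call held in 1 of 12 fits that left out an array and in 3 of 10 other settings. With probe sets ending in _at alone the limma adjusted p was 0.0549. The wildtype day 7 arrays were at 1.20, -0.43 and -0.35, and in the first of them the probe set ending in _x_at read 4.41.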

How the results depend on the processing

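With 3 arrays per group and no signal over background, small differences of these genes could not be called, and most counts of calls are too few to be stable. A setting can also change how many of all genes pass. The counts in this section are given without that share, so they do not set the members against other genes. In day 7 genotype differences, where 1 member passed, 0 passed with the probe set of largest SD per gene, with _at probe sets alone, with only the arrays compared, without both arrays that stand apart (mouse 3 of the IFNAR-/- day 7 group and mouse 2 of the IFNAR-/- day 14 group), with 5' over 3' or poly-A signal as a covariate, at 1.5-fold, with each probe set tested by itself and in every fit that left out 1 array (0 to 0), against 2 with array weights. At day 14 (4 passed), 2 passed with _at probe sets alone, 2 without both arrays apart, 2 at 1.5-fold, 1 with only the arrays compared, 0 with 5' over 3', and 1 to 2 with 1 array left out. With time in wildtype (3 passed), 5 passed after quantile normalization, 5 with array weights, 5 without both arrays apart, 1 with a trended and robust prior and 0 with 5' over 3'. With time in IFNAR-/- cells (2 passed), 7 passed with array weights, 4 probe sets by themselves, 1 with only the arrays compared, 1 without both arrays apart, 1 at 1.5-fold and 0 to 4 with 1 array left out. For the change of the genotype difference (1 passed), 5 passed with array weights and 2 after quantile normalization; 0 passed with the probe set of largest SD, _at probe sets alone, the trended and robust prior, 5' over 3', poly-A, without both arrays apart and by probe set, and 0 to 1 with 1 array left out.

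The median difference of the members moved by more than 0.0696 in few cases. That limit is the pooled SD within groups of the members' median on single arrays. It is not the spread of a difference between groups. With time in wildtype (0.12) it was 0.20 with _at probe sets alone and 0.20 with 18S as a covariate, and 14 members lay below 0 with 5' over 3', against 8. With time in IFNAR-/- cells (-0.06) the median difference of the ribosomal protein genes, time in IFNAR-/-, was 0.038 with _at probe sets alone, with 10 of 27 members below 0. The change of the genotype difference (-0.23) was -0.16 with array weights, -0.16 without both arrays apart, -0.12 with 5' over 3' and from -0.27 to -0.14 with 1 array left out. At day 14 the members below 0 numbered 39 to 45 over the alternatives that kept all 50. Of 276 recomputed results of the comparisons 204 stayed within these limits, and of 1513 for named genes 77 lost and 10 gained a call while keeping their direction. The control signals used as covariates differed between wildtype day 14 arrays and the groups they were compared with, and the cause of these changes was not tested.

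The mouse number as a replicate block left 0 members called at day 7, 2 at day 14 and 0 for the change, and the counts with time in either genotype were as in the fit without it. The numbers did not pair the arrays: in 3 of 18 same-numbered pairs of arrays from different groups was the correlation of their deviations the highest for their own number. The 18S covariate, every probe set by itself and the count below 0 were added after the data were seen.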
